A study of Mus musculus with 30 samples.

Results

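CHD4 and SMARCA4 were compared in untreated mouse E14 embryonic stem cells through the deposited peak lists of 4 chromatin immunoprecipitation sequencing (ChIP-seq) libraries, 2 for each protein. These are 4 of the 20 samples with a peak list among the 30 samples of the series. Members were chosen by label and not by any measured value: the lists of CHD4 at 0 h, replicates 1 and 2, and of SMARCA4 at 0 h, replicates 1 and 2, restricted to chromosomes 1 to 19 and X. The CHD4 cells had the genotype CTCF AID with biotin-CHD4 and the SMARCA4 cells had CTCF AID with biotin-SMARCA4, so CTCF carried an auxin-inducible degron in both and each remodeler was read through a biotin tag in its own line. Neither group received indole-3-acetic acid (IAA), the auxin that sends the degron-tagged CTCF to the proteasome. Both were grown without serum in medium with LIF, PD0325901 and CHIR99021. The labels give neither clone numbers nor whether replicates were separate cultures, so the spread between replicates may be technical.

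CHD4 is the ATPase of NuRD, a complex that joins nucleosome remodeling to histone deacetylation and is best known for damping transcription. SMARCA4, also called BRG1, is the ATPase of the BAF (SWI/SNF) complexes of embryonic stem cells, which slide and evict nucleosomes and keep regulatory DNA open. Both complexes occupy promoters and enhancers of pluripotent cells, where they act on the same nucleosomes in opposing or complementary ways.

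The sequences below are those of the highest-ranked distal region of each class that touched no annotated exon, because the main contrast between the classes lies in their distal DNA. Each is 200 bases of GRCm38 (RefSeq sequence, plus strand) around the strongest summit, and capitals mark a match to one of the 14 short motifs that were searched on both strands. The shared region, with a peak in all 4 lists, was chr16:13749743-13749942, an intergenic site 10639 bp from the nearest annotated start site, with the E-box CACGTG in capitals. The region with CHD4 alone was chr9:104444982-104445181, also intergenic, 18969 bp from the nearest start site, with the core of the CTCF motif, AGGGGGC, in capitals. The region with SMARCA4 alone was chr8:123021269-123021468, in an intron of Ankrd11, with a SOX motif, CATTGTT read on the other strand, in capitals.
Shared by CHD4 and SMARCA4: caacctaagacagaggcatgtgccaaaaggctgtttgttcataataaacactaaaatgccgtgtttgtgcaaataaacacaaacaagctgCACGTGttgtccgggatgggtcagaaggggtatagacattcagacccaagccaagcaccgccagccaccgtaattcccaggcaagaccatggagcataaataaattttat
CHD4 only: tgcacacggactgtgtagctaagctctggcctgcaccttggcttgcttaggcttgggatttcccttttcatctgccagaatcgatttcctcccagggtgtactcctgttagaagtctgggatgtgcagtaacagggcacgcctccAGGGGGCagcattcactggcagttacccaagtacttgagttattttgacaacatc
SMARCA4 only: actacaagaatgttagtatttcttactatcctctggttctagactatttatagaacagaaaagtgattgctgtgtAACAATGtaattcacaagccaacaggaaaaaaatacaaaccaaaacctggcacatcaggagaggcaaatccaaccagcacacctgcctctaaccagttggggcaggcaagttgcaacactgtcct
At the shared site the peaks had fold enrichments of 33.0 and 33.0 in the CHD4 lists and 31.4 and 38.6 in the SMARCA4 lists. At the CHD4 site they were 35.3 and 35.1, and CTCF itself had a peak there in untreated cells. At the SMARCA4 site they were 9.16 and 6.57, and both SMARCA5 lists had a peak there while the CTCF list had none. By the authors' fold enrichment, the peak's own value within its list, this CHD4-only site was as strong in the CHD4 lists as the shared site. This SMARCA4-only site was weaker in the SMARCA4 lists than the shared site. These sites lead their classes and are not typical of them. Over all distal regions with CHD4 alone the median fold enrichments were 4.32 and 4.74 in the CHD4 lists, below the 5.60 and 5.997 of shared distal regions. With SMARCA4 alone they were 3.59 and 3.52 in the SMARCA4 lists, below the 5.53 and 5.27 of shared distal regions.

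The CHD4 lists held 111934 and 187275 peaks and the SMARCA4 lists 92452 and 70427. CHD4 replicate 2 stood apart by its narrow peaks, with a median width of 119 bp against 433, 647 and 589 bp in CHD4 replicate 1 and SMARCA4 replicates 1 and 2. The lists hold no read counts, and a site without a listed peak may carry signal below the authors' threshold.

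CHD4 and SMARCA4 shared much of their chromatin, and the distinct sites were mostly distal. The peaks of the 4 lists merged into 176187 regions. A peak of all 4 lists was present in 38152 regions (21.7% of them), and these regions took up 44.3% and 54.9% of the CHD4 peaks and 45.7% and 65.8% of the SMARCA4 peaks. A further 19504 regions (11.1%) were CHD4-distinct, with a peak in both CHD4 lists and in neither SMARCA4 list, and 6635 (3.77%) were SMARCA4-distinct by the same rule. The remaining 111896 regions split the replicates of at least 1 remodeler. Which remodeler had more distinct regions was not stable. With only the strongest 70427 peaks of each list kept, the number in the shortest, 7975 regions were CHD4-distinct and 11767 SMARCA4-distinct. Without SMARCA4 replicate 2 the counts were 21674 and 28219, and in the libraries of 12 h of IAA 8681 and 12331.

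**Figure D1:**
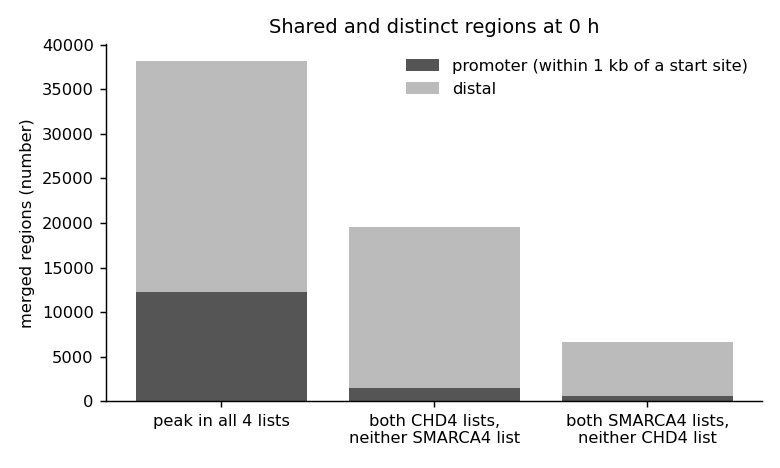
Merged regions with a peak in all 4 lists, in both CHD4 lists and neither SMARCA4 list, and in both SMARCA4 lists and neither CHD4 list; bars count regions, split into promoter regions (strongest summit within 1 kb of an annotated start site) and distal regions. The 12211 shared promoter regions exceed the 1543 and 561 promoter regions of the distinct classes.

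Promoters made up 32.0% of the shared regions, 7.91% of the CHD4-distinct regions and 8.46% of the SMARCA4-distinct regions, where a promoter region is one whose strongest summit lay within 1 kb of an annotated start site. Over all merged regions the share was 14.2%. Shared regions were also wider, with a median of 1534 bp against 381 bp and 665 bp. The distal regions of the 2 distinct classes lay in different surroundings. Of the SMARCA4-distinct distal regions, 63.4% were intronic and 31.3% intergenic. Of the CHD4-distinct distal regions, 47.3% were intronic and 47.0% intergenic, close to the 46.4% and 47.9% of shared distal regions. Over all distal regions the shares were 49.7% and 43.9%. The X chromosome held 7.84% of the 561 SMARCA4-distinct promoter regions, 3.18% of the CHD4-distinct ones and 1.72% of the shared ones. Over all promoter regions the share was 2.74%, near that of the CHD4-distinct ones. These shares describe single merged sets and carry no replicate error.

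The NuRD ATPase and the BAF ATPase placed similar shares of their peaks at promoters, with no difference beyond the replicate spread. Promoter peaks, with the summit within 1 kb of an annotated start site, were 18.2% and 21.6% of the CHD4 lists (19.9% ± 2.37, SD, n = 2 libraries) and 20.5% and 23.5% of the SMARCA4 lists (22.0% ± 2.15, SD, n = 2). The values of the groups overlapped, and the difference of −2.09 points was within the replicate spread (exact permutation test over the 4 libraries, two-sided p = 0.667, Benjamini-Hochberg adjusted over 4 tests to 1). With 2 libraries against 2, no such test can give a p below 0.333. Cutting the lists to 1 length turned the difference to 1.46 points.

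CHD4 had a peak at 65.9% and 66.3% of the 21668 protein-coding promoters (66.1% ± 0.290, SD, n = 2), counting a promoter as occupied when a peak touched the 1 kb to either side of any of its start sites. SMARCA4 occupied 66.3% and 59.1% (62.7% ± 5.10, SD, n = 2). The first SMARCA4 library matched both CHD4 libraries and the second was lower, and the mean difference of 3.33 points was within the replicate spread (exact permutation test, two-sided p = 1). Its sign turned without SMARCA4 replicate 2 (−0.275 points) and, with all 4 libraries, in lists of equal length (−5.47 points). By gene, 12011 promoters (55.4%) had a peak in all 4 lists, 456 (2.10%) in both CHD4 lists alone, 150 (0.692%) in both SMARCA4 lists alone, and 6221 (28.7%) in none. The order of the distinct counts turned with lists of equal length, to 277 for CHD4 and 874 for SMARCA4, and in the 12 h lists, to 239 and 348.

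Around the start site itself the remodelers differed by degree. Summits of both lay more often downstream of the start than upstream, and those of SMARCA4 more so than those of CHD4. Start sites with no other-strand start within 2000 bp were used so that upstream and downstream had 1 meaning. Within 1000 bp of them, 55.4% and 56.4% of CHD4 summits lay downstream (55.9% ± 0.701, SD, n = 2), against 63.3% and 61.6% of SMARCA4 summits (62.4% ± 1.23, SD, n = 2). Both CHD4 libraries were below both SMARCA4 libraries. The difference of −6.49 points gave p = 0.333 in the exact two-sided permutation test, the smallest p that this design allows (adjusted p = 1).

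The depletion of SMARCA4 summits was narrow. The 200 bp just upstream of the start held 17.6% and 14.9% of the CHD4 summits but 10.9% and 12.0% of the SMARCA4 summits. The bin from 100 to 200 bp downstream held 14.2% and 9.38% of the CHD4 summits and 17.2% and 17.2% of the SMARCA4 summits. In the 4 libraries taken after 12 h of IAA, which were not used to set the groups, the downstream shares were 54.3% and 55.6% for CHD4 and 63.2% and 60.3% for SMARCA4.

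**Figure D2:**
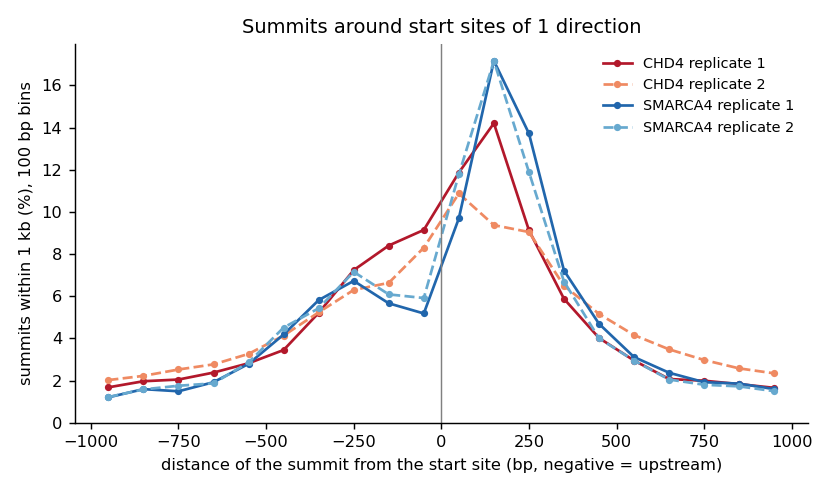
Summits of each library around protein-coding start sites of 1 direction, as the percentage of its summits within 1 kb (y axis) in bins of 100 bp of distance (x axis, negative is upstream); lines are the 4 libraries. Both SMARCA4 lines dip to 5.19% and 5.92% in the bin just upstream of the start, where CHD4 holds 9.15% and 8.30%.

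Where both remodelers had a peak in the same region, their strongest summits were further apart by the median than those of replicates. In the 38152 shared regions the median distance was 133 bp between the CHD4 replicates and 124 bp between the SMARCA4 replicates. The 4 pairs across remodelers gave 174, 176, 198 and 199 bp. All 4 cross pairs exceeded both replicate pairs, by a mean of 187 bp against 128.5 bp. Promoter regions (184 to 199 bp across, 130 and 132 bp within) and distal regions (170 to 200 bp across, 121 and 135 bp within) gave the same order. Pairs share libraries, so no test was made.

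Part of this distance went with the number of peaks in a region. CHD4 replicate 2 had on average 2.70 peaks per shared region, more than CHD4 replicate 1 and more than the SMARCA4 libraries with 1.11 and 1.21. In the 10082 shared regions with exactly 1 peak of each library the replicate distances were 109 and 102 bp and the cross distances 117, 116, 140 and 135 bp. The cross pairs of CHD4 replicate 1 then stood only 7 to 8 bp above the CHD4 replicate pair. Pairing each summit with its mutual nearest one gave a mean of 128.5 bp across remodelers and 103 bp between replicates. Beside 8154 shared single-direction start sites, both CHD4 summits lay upstream of both SMARCA4 summits in 2041 regions and downstream of both in 1475. The median shift of SMARCA4 relative to CHD4 was 9 to 33 bp downstream in the 4 cross pairs, and the replicates differed by 17 bp (CHD4) and −14 bp (SMARCA4), so the shift overlapped the replicate error.

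**Figure D3:**
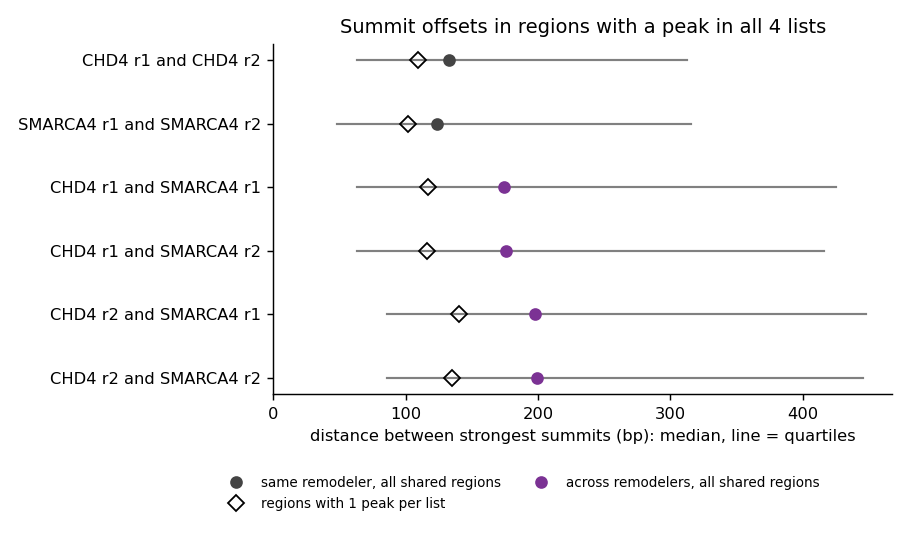
Distance in bp between the strongest summits of 2 libraries (r1 and r2 are replicates) in regions with a peak in all 4 lists; filled points are medians over the 38152 regions, lines their quartiles, and open diamonds medians over the 10082 regions with 1 peak per list. Medians run from 124 to 133 bp for replicates and from 174 to 199 bp across remodelers, and the gap narrows in the regions with 1 peak per list.

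The strongest SMARCA4 sites nearly all had CHD4, and the strongest CHD4 sites had SMARCA4 less often. Peaks were ranked within their own list by −log10 p, from percentile 0 to 100. Of the strongest 10% of the SMARCA4 lists, 98.1% and 97.7% lay in regions shared by all 4 lists, and 0.249% and 0.0989% in SMARCA4-distinct regions. Of the strongest 10% of the CHD4 lists, 81.8% and 85.2% lay in shared regions, and 12.3% and 8.55% in CHD4-distinct regions. Over whole lists, 7.26% and 9.77% of SMARCA4 peaks and 17.4% and 12.6% of CHD4 peaks lay in their own distinct regions. Distinct peaks of both remodelers were thus less frequent in the strongest 10% than in the whole lists. The gap between the remodelers was also there when region borders were widened. With 1 kb added to either side, 1056 of the 11185 strongest CHD4 replicate 1 peaks (9.44%) and 1235 of 18741 in replicate 2 (6.59%) met no peak of either SMARCA4 list. Only 19 of 9245 (0.206%) and 6 of 7076 (0.0848%) of the strongest SMARCA4 peaks met no CHD4 peak. The CHD4 lists hold more peaks than the SMARCA4 lists and cover 72.1 and 37.0 Mb of the genome, against 90.3 and 63.6 Mb. The part of list size in the gap was not tested.

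**Figure D4:**
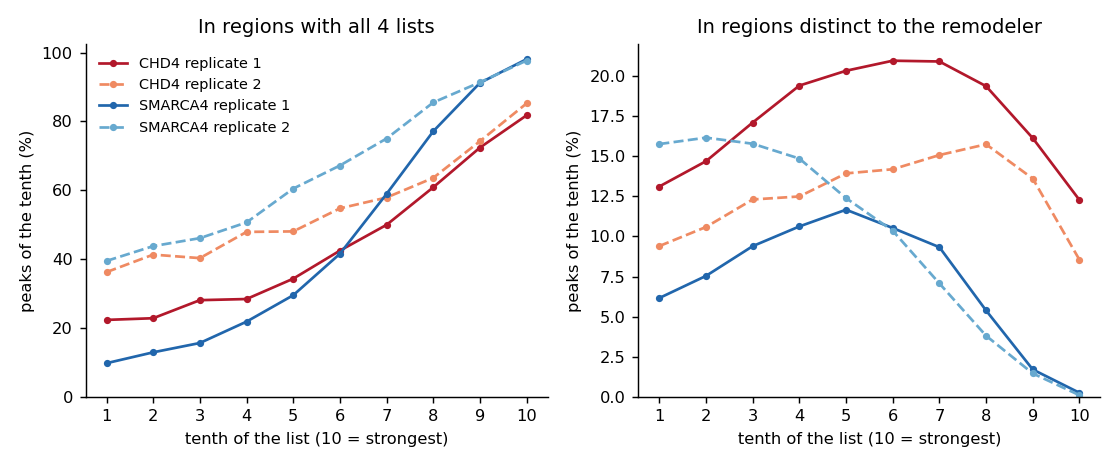
Percentage of the peaks in each of 10 equal rank bins of a list (x axis, bin 10 is the strongest by −log10 p) that lie in regions with a peak in all 4 lists (left) and in regions distinct to the same remodeler (right); lines are the 4 libraries. In the strongest bin 98.1% and 97.7% of SMARCA4 peaks and 81.8% and 85.2% of CHD4 peaks were in shared regions.

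Inside the shared regions the remodelers ranked sites differently. Spearman's rho of the percentiles across the 38152 regions was 0.705 between the CHD4 replicates and 0.780 between the SMARCA4 replicates, but 0.354 to 0.468 across remodelers; regions are not independent replicates and the pairs share libraries. At promoters the cross values were 0.331 to 0.362, and at distal sites 0.395 to 0.504. Over all peaks of a list, in shared regions or not, promoter peaks were 28.9% and 37.2% of the strongest 10% for CHD4. They were 26.6% and 13.2% for SMARCA4. The first replicates of the 2 remodelers were close, and the replicates of each remodeler differed by more. SMARCA4 promoter peaks were most frequent lower in the ranking, in bin 9 of 10 in replicate 1 (39.2%) and bin 8 of 10 in replicate 2 (35.8%). In CHD4 replicate 1 bins 9 and 10 were level (28.9% and 28.9%). Over whole lists, the median percentile of promoter peaks minus that of distal peaks was 18.5 and 14.4 for CHD4 and 24.0 and 11.6 for SMARCA4, a difference of −1.32 percentile points within the replicate spread (exact permutation test, two-sided p = 1).

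A set of shared regions tilted by at least 25 percentile points, with both lists of 1 remodeler above both lists of the other, was formed after the data were seen. It held 2403 CHD4-tilted and 1144 SMARCA4-tilted regions, 6.30% and 3.00% of the shared regions. The lists differ in length, and the part of list length in these counts was not tested. Promoters were 31.7% of the CHD4-tilted regions, near the 32.0% of all shared regions, and 16.5% of the SMARCA4-tilted ones. A CTCF peak lay within 100 bp of the summit at 20.95% of the CHD4-tilted distal regions and 2.51% of the SMARCA4-tilted ones, against 8.32% of all shared distal regions.

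Both remodelers were found at the regulatory genes of the stem cell state, and the listed liver, muscle and blood genes had few peaks. All 25 listed pluripotency factors had a promoter peak in all 4 lists, against 55.4% of all protein-coding promoters. The highest were Pou5f1, which encodes OCT4, Nanog, and Dppa5a. Pou5f1 had fold enrichments of 16.3 and 15.4 for CHD4 and 27.1 and 25.3 for SMARCA4. Nanog had 17.1 and 18.6 for CHD4 and 21.8 and 21.1 for SMARCA4. Dppa5a had 32.8 and 8.69 for CHD4 and 37.7 and 31.7 for SMARCA4. None of the 20 liver, muscle and blood genes, such as Alb and Myh6, had a peak in more than 1 list, and 17 had none.

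Of the pluripotency promoters, more ranked higher for SMARCA4 than for CHD4, and 12 of the 25 for neither. To compare ranks, a promoter took the percentile of its best peak in each list, or 0 where it had none, and was called higher for a remodeler when both its lists exceeded both lists of the other. Over all protein-coding genes 6093 promoters (28.1%) were higher for CHD4 and 1948 (8.99%) for SMARCA4. Cutting the lists to 1 length gave 3733 and 4526, so the general balance turned with list length. Of the 25 pluripotency factors, 10 were higher for SMARCA4 and 3 for CHD4. Their median percentile was 86.3 and 93.5 in the CHD4 lists and 95.97 and 93.8 in the SMARCA4 lists, so the second replicates were almost level. Klf2, a Krüppel-like factor of the naive state named after its values were seen, stood at percentiles 70.6 and 80.8 in the CHD4 lists and 99.6 and 98.6 in the SMARCA4 lists. Lin28a, an inhibitor of let-7 maturation also named after its values were seen, had the opposite order, at 90.3 and 95.0 against 43.7 and 52.9. In the 12 h lists 16 of the 25 were higher for SMARCA4, where the share over all genes was 15.8%. With lists of equal length 18 of the 25 were higher for SMARCA4 and 1 for CHD4.

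Germline genes, which are largely silent in embryonic stem cells, showed the reverse. Of the 16 listed, 15 were ranked higher for CHD4 and none for SMARCA4. All 16 had a peak in both CHD4 lists, and 8 had one in both SMARCA4 lists. The median percentile of those with a peak was 89.5 and 96.4 in the CHD4 lists and 47.6 and 26.4 in the SMARCA4 lists. Over all protein-coding promoters with a peak the medians were 76.7, 86.6, 77.4 and 67.1. This list held 5 CHD4-distinct promoters and the other 10 lists none, while 2.10% of all genes had one. Without SMARCA4 replicate 1 the germline count was 8 and 4 other lists gained members (ectoderm 4, mesoderm 2, BAF 1, endoderm 1). The count over all 21668 genes was then 1553. With lists of equal length the germline count was 3 and that over all genes 277.

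The 5 were Slc25a31, Taf7l, Piwil2, Piwil1 and Tex101. Slc25a31, the testis form of the mitochondrial ADP/ATP carrier, had CHD4 fold enrichments of 8.79 and 9.65. Taf7l, a germ cell relative of a TFIID subunit, had 5.53 and 7.95. Piwil2 and Piwil1, the PIWI proteins that carry small RNAs against transposons, had 3.43 and 5.68, and 4.23 and 4.57. Tex101, a sperm surface protein, had 3.40 and 4.15, the lowest of the list for CHD4. No SMARCA4 list had a peak at any of the 5.

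The 3 germline members with peaks in all 4 lists and the highest mean percentile were Tex14, Rpl10l and Ddx4. Ddx4, the Vasa helicase, had CHD4 percentiles of 89.7 and 96.1 and SMARCA4 percentiles of 47.6 and 45.2. Rpl10l, the testis copy of a ribosomal protein gene, had 95.7 and 94.7 against 66.7 and 45.2. Tex14, needed for germ cell bridges, was the 1 member without the tilt, at 95.8 and 97.4 against 98.0 and 87.0. Sycp3, a synaptonemal complex gene named after its values were seen, had 90.4 and 97.8 for CHD4 and 25.8 and 28.9 for SMARCA4.

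The count of 15 was near this value under other settings. It was 13 of 16 with lists of equal length, 14 of 16 ranked by fold enrichment, and 15 or 16 of 16 with any 1 library left out, where the share over all genes ran from 17.2% (equal length) to 44.8% (without CHD4 replicate 1). In the 4 libraries of 12 h of IAA all 16 were higher for CHD4, where the share over all genes was 23.5%. The 12 h libraries are separate samples, though from cells depleted of CTCF. Earlier results of these data were known when the list was made.

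**Figure D5:**
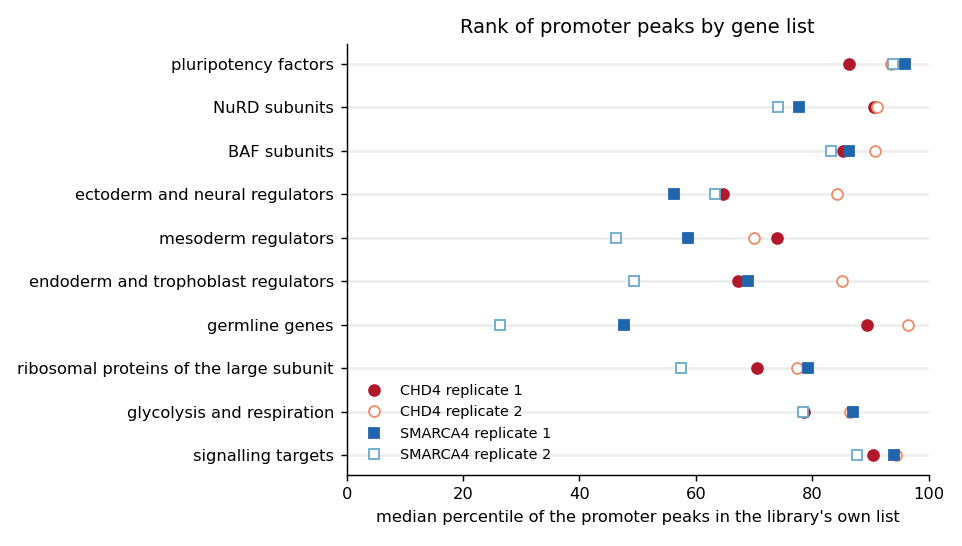
Median percentile of the promoter peaks of each gene list within the library's own peak list (x axis), over the members with a peak in that library; circles are CHD4 and squares SMARCA4, filled for replicate 1 and open for replicate 2. The list of liver, muscle and blood genes is left out because 17 of its 20 members had no peak. The germline genes show the widest separation, at 89.5 and 96.4 for CHD4 and 47.6 and 26.4 for SMARCA4.

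The sequences of the germline promoters were read for CpGs and for an E-box, neither of which the lists used. Of the 5 CHD4-distinct promoters, 2 had 200 upstream bases that touched no annotated exon, and these are shown as the RefSeq sequence of GRCm38.p6 on the gene's strand, ending at the base before the start, with every CpG in capitals. They are Taf7l at chrX:134476491-134476690 and Tex101 at chr7:24672051-24672250, both on the minus strand.
Taf7l: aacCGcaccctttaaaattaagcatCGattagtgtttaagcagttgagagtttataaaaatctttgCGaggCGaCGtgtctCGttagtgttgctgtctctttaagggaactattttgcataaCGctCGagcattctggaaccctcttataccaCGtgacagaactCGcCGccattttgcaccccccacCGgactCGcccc
Tex101: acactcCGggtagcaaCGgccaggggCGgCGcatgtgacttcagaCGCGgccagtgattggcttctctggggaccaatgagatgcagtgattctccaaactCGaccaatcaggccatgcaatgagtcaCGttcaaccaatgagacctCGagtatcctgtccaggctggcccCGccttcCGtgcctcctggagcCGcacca
The stretches hold 13 and 12 CpGs. That of Taf7l also holds 1 CACGTG, the E-box read by MYC, MAX and MGA, and that of Tex101 holds none. In the RefSeq promoter windows of 300 bases, most of them upstream of the start, CACGTG was present in 10 of the 15 germline promoters matched, and in 1515 of the 16426 protein-coding promoters matched (9.22%). Among the other lists the share ran from 0% to 18.2%. A match is only a description of the letters in the window. CpGs were no rarer than in other promoters, with a median of 20 per window in the germline list and 14 over all.

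The genes of the complexes themselves were bound by both remodelers, which was not particular to them. Of all protein-coding promoters, 55.4% had a peak in all 4 lists. All 20 signalling targets and 19 of 20 glycolysis and respiration genes also had such peaks. All 15 NuRD genes had a promoter peak in all 4 lists, 7 of them higher for CHD4 and 3 for SMARCA4 (5 and 4 with lists of equal length, and 3 and 4 in the 12 h lists, where the order turned). Of all genes, 28.1% and 8.99% were higher for CHD4 and SMARCA4, with 17.2% and 20.9% at equal length and 23.5% and 15.8% at 12 h. Chd4 had CHD4 fold enrichments of 9.02 and 6.26 and SMARCA4 fold enrichments of 5.68 and 4.92. Gatad2a, a NuRD scaffold subunit with the highest mean rank of the list, had 11.3 and 8.65 against 12.3 and 7.99. Mbd3, the methyl-CpG-binding domain subunit, had 6.50 and 7.48 against 8.06 and 7.20. Cdk2ap1, a small NuRD subunit, had 8.52 and 7.88 against 5.76 and 5.84. Hdac1, a deacetylase of NuRD named after its values were seen, had 10.2 and 11.4 against 3.59 and 4.45. Of 29 BAF genes 27 were shared, 9 were higher for CHD4 and 2 for SMARCA4, shares near those of all genes, in an order that turned with lists of equal length (7 and 8) and in the 12 h lists (7 and 9). Smarca4 had CHD4 fold enrichments of 7.35 and 6.45 and SMARCA4 fold enrichments of 9.32 and 8.01. Smarcc1, a core scaffold subunit, led the list with 9.07 and 12.4 against 11.9 and 8.23. The next were Arid2, of PBAF, with 7.38 and 11.6 against 10.6 and 8.14, and Arid1b, the paralog of Arid1a, with 10.8 and 12.1 against 10.3 and 11.1. Arid1a, the subunit that defines canonical BAF, was 1 of the 2 higher for SMARCA4, with 4.37 and 5.57 against 10.2 and 10.2, and Pbrm1, of the PBAF form, was the other, with 3.36 and 3.48 against 5.18 and 4.60. Bicral lacked a peak in replicate 2 of both remodelers and Dpf2 lacked one in SMARCA4 replicate 2.

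Lineage regulators, mostly silent in these cells, were shared at or somewhat above the 55.4% of all protein-coding promoters. All 4 lists had a peak at 10 of 16 ectoderm and neural promoters, 10 of 16 mesoderm promoters and 12 of 16 endoderm and trophoblast promoters, with 9, 7 and 4 higher for CHD4 and 2, 0 and 1 higher for SMARCA4. Beside the 28.1% and 8.99% of all genes, the endoderm and trophoblast counts were near the background, and the ectoderm and mesoderm counts for CHD4 were 56.25% and 43.75% of their lists. With lists of equal length the counts were 2, 4 and 2 for CHD4 and 3, 2 and 2 for SMARCA4, where the shares of all genes were 17.2% and 20.9%, so of these lists only the mesoderm list kept its order. In the 12 h lists the endoderm and trophoblast list also turned, to 4 and 5. Eomes, a T-box factor that led the mesoderm list, had CHD4 fold enrichments of 7.29 and 14.3 and SMARCA4 fold enrichments of 5.30 and 6.03. Gata4, a cardiac factor, had 4.91 and 7.27 against 6.01 and 5.12. Mesp1, an early mesoderm factor, had CHD4 fold enrichments of 14.4 and 24.3 and SMARCA4 fold enrichments of 7.03 and 3.17. Otx2, a forebrain and primed-state factor, had 13.4 and 9.38 against 11.2 and 10.3. Pax6, of eye and forebrain, had 13.6 and 8.66 against 8.24 and 13.4, and Neurog1, a proneural factor, had 8.68 and 8.13 against 7.95 and 6.76. These leaders were not equally strong in all 4 lists: in SMARCA4 replicate 2 Mesp1 stood at percentile 31.8 and Gata4 at 62.8. Gsc, a factor of the organizer, was 1 of the few higher for SMARCA4, with 8.09 and 7.12 against 12.2 and 13.7. Tfap2c, a trophoblast and germ cell factor, had 7.67 and 12.9 against 7.46 and 7.15. Gata2 had 8.67 and 9.98 against 8.17 and 5.81. None of the lineage promoters was distinct to either remodeler, where 2.10% of all genes were CHD4-distinct and 0.692% SMARCA4-distinct. Without SMARCA4 replicate 1 the CHD4-distinct ones numbered 4, 2 and 1 in the 3 lists, beside 1553 of all 21668 genes. With lists of equal length 2 ectoderm promoters were SMARCA4-distinct, beside 874 of all genes.

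Housekeeping and signalling genes had counts for the 2 remodelers close to each other. Of all genes, 28.1% were higher for CHD4 and 8.99% for SMARCA4, and 55.4% had a peak in all 4 lists. In the ribosomal, glycolysis and respiration, and signalling lists 25%, 20% and 35% were higher for CHD4. The shares higher for SMARCA4 were 30%, 15% and 25%, above that of all genes. With lists of equal length SMARCA4 had the larger count in all 3 lists, where the shares of all genes were 17.2% and 20.9%. Of 20 ribosomal protein genes 17 were shared, with 5 higher for CHD4 and 6 for SMARCA4. Rpl7 had fold enrichments of 7.89 and 12.9 for CHD4 and 7.37 and 5.89 for SMARCA4, Rpl13 had 9.31 and 7.96 against 5.42 and 3.89, and Rpl5 had 11.8 and 7.501 against 4.60 and 5.08. Of 20 glycolysis and respiration genes 19 were shared, with 4 and 3 higher, and Eno1, the glycolytic enolase, had 11.8 and 17.05 against 11.85 and 12.2. Cox4i1, of respiratory complex IV, had 15.3 and 12.04 against 8.93 and 6.45, and Hk2, a hexokinase, had 6.98 and 9.84 against 14.5 and 7.47. All 20 signalling targets were shared, with 7 and 5 higher. Nodal, the TGF-beta ligand, had 17.95 and 16.1 against 16.4 and 18.7, and Axin2, a target of WNT, had 13.7 and 16.4 against 10.6 and 10.5. Dusp6, a phosphatase induced by ERK signalling, had 7.77 and 8.45 against 10.7 and 14.2.

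Among all 456 CHD4-distinct protein-coding promoters, the 10 with the highest mean percentile were Nup160, Gm7102, Sycp2, Ocstamp, CN725425, Cyp21a1, Bin2, Zfp770, Lrfn3 and Spo11. Nup160, a nuclear pore component, had CHD4 fold enrichments of 27.0 and 22.2. Of the 10, 2 are meiotic genes outside the germline list. Sycp2, a synaptonemal complex protein, had 14.2 and 16.5, and Spo11, which makes meiotic double-strand breaks, had 11.8 and 10.2. Cyp21a1, the steroid 21-hydroxylase, had 16.2 and 9.67. The others had 8.34 to 26.6.

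Among the 150 SMARCA4-distinct promoters the 10 highest were Gm10277, Cldn20, Tmem69, Tigd4, Bcas2, Gp5, Cnot3, Enpp3, Arel1 and Fcf1. Bcas2, a spliceosome component, had SMARCA4 fold enrichments of 7.59 and 6.57. Cnot3, of the CCR4-NOT deadenylase, had 8.85 and 5.82. Arel1 and Fcf1 had the same peaks, with 8.84 and 6.38. The 10 ran from 5.56 to 11.4. Within their own lists the SMARCA4-distinct leaders stood at mean percentiles of 81.9 to 94.6 and the CHD4-distinct leaders at 95.7 to 99.9.

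Of the other proteins mapped in the same series, CTCF and SMARCA5 differed most between the distinct distal classes and CHD8 little. A CTCF peak of untreated cells lay within 100 bp of the summit at 17.6% of CHD4-distinct, 8.32% of shared and 3.54% of SMARCA4-distinct distal regions, and at 1.82%, 1.49% and 1.45% of the same windows shifted by 100 kb. The cohesin subunit SMC1A gave 6.64%, 8.56% and 2.37%. SMARCA5, the ISWI ATPase, followed SMARCA4 instead: its lists met 4.05% and 7.27% of CHD4-distinct distal sites, with 3.41% and 4.80% after shifting, but 11.2% and 17.1% of SMARCA4-distinct and 34.8% and 45.7% of shared distal sites. CHD8 met 11.2% and 7.80% of CHD4-distinct and 10.5% and 5.28% of SMARCA4-distinct distal sites, against 50.1% and 39.6% of shared ones. CTCF and SMC1A have 1 library each, so their values have no replicate check.

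The CTCF motif in the distal sequences followed the same order as the CTCF peaks. The CTCF core AGGGGGC, on either strand of the 200 bases around the summit, was found in 8.12% of CHD4-distinct, 4.79% of shared and 2.45% of SMARCA4-distinct distal windows, against 4.78% of all distal windows and 2.38%, 2.22% and 2.16% of the windows shifted by 100 kb. The GC-rich KLF motif GGGCGTGG was in 3.10%, 3.09% and 1.05%, against 2.40% of all distal windows. The rarer YY1 motif AAGATGGCG was in 0.869%, 0.212% and 0.0329%, against 0.570% of all distal windows. Shifted windows gave 0.164% to 0.176% for it, and only 2 SMARCA4-distinct windows held it. Of the motifs of pluripotency factors, KLF was as frequent in CHD4-distinct as in shared windows, while those of ESRRB, POU and SOX factors were less frequent in CHD4-distinct windows. The ESRRB motif TCAAGGTCA was in 0.963% of CHD4-distinct, 2.02% of shared and 1.42% of SMARCA4-distinct windows (1.39% of all distal windows), and the POU octamer ATTTGCAT in 1.26%, 2.54% and 1.88% (1.67%). The SOX motif CATTGTT was in 2.28%, 4.27% and 3.90% (3.16%), and the TEAD motif GGAATG in 8.69%, 13.2% and 13.7% (11.4%). Shifted windows gave 0.569% to 0.598% for ESRRB, 1.18% to 1.43% for the octamer, 3.12% to 3.26% for SOX and 10.1% to 10.5% for TEAD. The share of a short motif depends on the base composition of the windows, which was not held fixed, and a match is not evidence of binding.

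Repeats set the classes apart further. Soft-masked bases, which mark interspersed and simple repeats in the genome file, made up 44.3% of the CHD4-distinct distal windows, 24.6% of the shared and 16.2% of the SMARCA4-distinct ones, where shifted windows had 29.3% to 30.0%. Median GC content was 50.0%, 49.5% and 47.5%. How reads in repeats were mapped is not given in the sources used here, so the part of mapping in the CHD4-distinct class was not tested. At promoters, windows rich in CpG (GC of at least 50% and an observed over expected CpG ratio of at least 0.6) were 62.5% of the shared, 17.0% of the CHD4-distinct and 19.3% of the SMARCA4-distinct class.

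The lists of 12 h, made from other libraries of the same genotypes after 12 h of IAA, met each distinct class mainly through its own remodeler. CHD4-distinct distal regions had a 12 h CHD4 peak in 52.6% and 40.1% of cases and a 12 h SMARCA4 peak in 15.0% and 21.2%, where regions shifted by 100 kb had 12.5% and 7.99%, and 12.5% and 14.1%. SMARCA4-distinct distal regions had a 12 h SMARCA4 peak in 76.6% and 71.1% and a 12 h CHD4 peak in 28.6% and 14.9%. Shared distal regions had a 12 h CHD4 peak in 93.7% and 84.7% and a 12 h SMARCA4 peak in 95.2% and 95.3%. By these shares the CHD4-distinct class was found again less often than the others, but the classes were not compared on equal terms. The 12 h CHD4 lists cover 75.4 and 23.8 Mb and the 12 h SMARCA4 lists 89.9 and 95.7 Mb. Median widths of the distal regions were 379 bp (CHD4-distinct), 665 bp (SMARCA4-distinct) and 1492 bp (shared). SMARCA4-distinct distal regions shifted by 100 kb had a 12 h SMARCA4 peak in 14.5% and 15.6%. The part of list coverage and region width in the order was not tested. The CTCF lists held 29926 peaks at 0 h and 2247 at 12 h.

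Within the CHD4-distinct class, regions with CTCF in untreated cells were found again less often than those without. Of the 3337 CHD4-distinct distal regions that overlapped a CTCF peak at 0 h, 22.4% and 16.4% had a CHD4 peak in the 12 h lists. Of the 14624 without a CTCF peak, 59.5% and 45.6% had one. SMARCA4-distinct distal regions showed a like split for SMARCA4: of the 272 with a CTCF peak 47.8% and 51.5% had a 12 h SMARCA4 peak, and of the 5802 without 77.99% and 71.99% had one. Among shared distal regions the split was smaller for CHD4, 87.9% and 79.6% with a CTCF peak against 94.6% and 85.5% without. A region with no 12 h peak may hold signal under the threshold, and the split was made after the data were seen.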

How the data were processed

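ChIP-seq peak lists of CHD4 and SMARCA4, 2 libraries each, from untreated cells were analysed, with the other lists of the series as further readouts. Per the submitters' processing notes, Trim Galore, Bowtie2, MACS2 and deepTools were used, with mm10 and hg38 as builds. The deposited lists carry no header and fit the chromosome lengths of GRCm38, the Genome Reference name of mm10. Column 7 of the deposited lists was read as fold enrichment, a ratio to local background, and columns 8 and 9 as −log10 p-values and −log10 q-values, all as the authors deposited them. The scores are used only within a list. Each list belongs to 1 library; depth is unknown, and the caller's control and settings are not given in the sources used here.

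Peaks overlapping by at least 1 bp across the 4 lists were merged into regions (Python 3.11.15, numpy 2.4.6, scipy 1.17.1), with start sites and genes of GENCODE M21 basic and sequence of the RefSeq genome. A region was placed by its strongest summit. Libraries were the units of 4 exact permutation tests with Benjamini-Hochberg adjustment. Regions named are the leaders of each class by mean percentile; genes named are the 10 leaders of each distinct class, list members with a distinct promoter and the 3 leaders of each list, outside chromosome 18; other genes named are said to be, or were, chosen after their values were seen. The members and gene lists were chosen with earlier results of these data known. Measures were tested on simulated lists. Alternatives were thresholds, list lengths, overlap and promoter rules, a replicate block, 12 h libraries and leaving out libraries.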

Additional observations from a re-analysis of the deposited data

How the results depend on the processing

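Of 111 alternative values, 54 stayed within the replicate spread or interval, 47 moved beyond it and 10 changed sign. The share of merged regions with a peak in all 4 lists (21.7%) was 22.3% with only peaks of −log10 q of at least 5, 23.9% with equal list lengths, 24.9% in the 12 h libraries, 7.66% with windows of 100 bp to either side of the summit, 20.03% with 50% overlap, and 24.2% to 30.9% without 1 library. CHD4-distinct regions (19504) numbered 8850, 7975, 8681 and 31504 under the first 4 of these and 21674 to 68771 without 1 library, the most without CHD4 replicate 1. SMARCA4-distinct regions (6635) numbered 11767 with equal lengths, 12331 at 12 h and 9048 to 28219 without 1 library, the most without SMARCA4 replicate 2. The promoter share of CHD4-distinct regions (7.91%) was 11.7%, 8.95%, 8.86% and 15.5% under the first 4 settings, 4.97% and 17.2% with promoters of 500 and 2500 bp, 4.21% with protein-coding starts only, and 7.14% to 11.85% without 1 library. That of SMARCA4-distinct regions (8.46%) was 15.1%, 13.3%, 10.96% and 15.9%, then 5.64%, 17.3% and 5.17%, and 8.66% to 10.7%.

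The CHD4 minus SMARCA4 difference in promoter share (−2.09 points) changed sign with equal lengths (1.46) and at 12 h (0.775), and was −3.77 to −0.416 without 1 library. The difference in promoter occupancy (3.33 points) became −5.47 with equal lengths, −1.83 at 12 h, and −0.275 to 6.94 without 1 library, negative without SMARCA4 replicate 2. The promoter rank contrast (−1.32) became 5.98 with −log10 q of at least 5, 0.775 with promoters of 500 bp and 0.0636 ranked by fold, and was −7.53 to 4.90 without 1 library. The downstream share (−6.49 points) kept its sign in each alternative run, from −7.53 to −5.62. The mean cross-remodeler offset (187 bp, replicate pairs 128.5 bp) was 204.25 bp at 12 h (replicate pairs 135 bp), 98.5 bp in windows (88 bp), 128.5 bp for mutual nearest summits (103 bp), 127 bp in regions with 1 peak per library (added after seeing the data), and 168.5 to 185 bp without 1 library. With a replicate block the 4 differences were as without it (promoter share −2.09), and the smallest possible p was 0.5; the labels give nothing but a shared number to pair the libraries. The lists give no read depth, so missing peaks cannot be told from weak ones.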
